A study of Mus musculus with 6 samples.

Results

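The enzymes that turn arachidonic acid into prostaglandins, thromboxane and leukotrienes were examined in RNA-seq libraries of activated lung group 2 innate lymphoid cells (ILC2s), lymphocytes of barrier tissues that answer the alarm cytokine IL-33. The 10 genes, like the lists of other genes below, were chosen with earlier results of these data known. They were chosen by name, as Pla2g4a, Ptgs1, Ptgs2, Hpgds, Ptges, Tbxas1, Alox5, Alox5ap, Lta4h and Ltc4s. Of these, 9 had a row among the 16588 genes of the deposited count table, and 7 passed the filter on low counts. Ptgs2 and Tbxas1 did not pass it. Ltc4s had no row and was not analysed here (the lowest row total of the table was 10 counts over the 6 libraries).

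There were 3 libraries labelled Cnr2 KO (KO-labelled below), from mice labelled as lacking Cnr2, the gene of the cannabinoid receptor CB2, and 3 wild-type (WT) libraries from mice labelled C57BL/6. Both groups were given intranasal IL-33, 0.5 µg on each of 3 days; lung cells were taken on day 4, and the sorted ILC2s were cultured for 18 h before RNA was extracted and 10 pg was made into cDNA. The sources used here give neither the knockout allele nor the ages of the mice, nor whether replicates came from separate animals, so the p-values reflect sample-to-sample spread that may be technical. The series title names adipose tissue and all sample labels name lung, which is used here.

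Total counts were 17867541 to 19399819 in the KO-labelled libraries and 19056174 to 129617689 in the WT libraries, where replicate 2 was the deep one. Cnr2 itself went against the label, with 147, 139 and 135 counts in the KO-labelled libraries and 76, 503 and 60 counts in the WT libraries. Its level in CPM, the share of a library's total count after TMM scaling, was 7.49 ± 0.0627 CPM in the KO-labelled libraries and 3.69 ± 0.449 CPM in WT (SD, n = 3 each, edgeR adjusted p = 2.11e-05). Counts per gene do not show which part of Cnr2 was read, and the allele is not given, so they cannot tell whether the label is wrong. The label names are kept for the groups. All 12 listed ILC2 markers had a row and were tested. In the KO-labelled libraries 8 were higher and 3 lower, beside 33.1% and 33.2% of all 12150 tested genes (edgeR adjusted p under 0.05). The summed level of these markers was 11600.3 to 12684 CPM in the KO-labelled libraries and 12883 to 13405 CPM in WT, without overlap. The levels of 68.8% of all tested genes did not overlap either. The higher markers include Gata3, the transcription factor of type 2 lymphocytes, at a mean of 1073 CPM in the KO-labelled libraries and 288 CPM in WT. The lower ones were the interleukin 2 receptor gene Il2ra, at 2680.1 CPM in the KO-labelled libraries and 5451 CPM in WT, and the cytokine genes Il13 (79.8 CPM in the KO-labelled libraries and 151 CPM in WT) and Areg (139.6 CPM in the KO-labelled libraries and 243 CPM in WT).

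Arachidonic acid is cut from membrane phospholipids, largely by cytosolic phospholipase A2, the product of Pla2g4a. The cyclooxygenases, products of Ptgs1 and Ptgs2, turn it into prostaglandin H2, from which terminal synthases make prostaglandin D2 (Hpgds), prostaglandin E2 (Ptges) or thromboxane A2 (Tbxas1). In the other branch the lipoxygenase encoded by Alox5, aided by its membrane partner FLAP (Alox5ap), makes leukotriene A4, which Lta4h converts to leukotriene B4 and Ltc4s to the first cysteinyl leukotriene. ILC2s carry receptors for several of these lipids, and human ILC2s are known to make prostaglandin D2.

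The leukotriene genes Alox5, Alox5ap and Lta4h and the prostaglandin D2 synthase gene Hpgds were higher in the KO-labelled libraries, and the prostaglandin E2 synthase gene Ptges and the phospholipase gene Pla2g4a were lower. Alox5 differed most, at 6.78-fold higher. Of the 7 genes tested, 4 were higher, where 33.1% of all 12150 tested genes were, and 2 were lower, where 33.2% of all were (adjusted p under 0.05 by Benjamini-Hochberg, edgeR quasi-likelihood). Since 66.3% of all tested genes were called in either direction, a call by itself does not set these enzymes apart. The values of the 3 libraries of each group did not overlap for the same 6 genes, as for 68.8% of all tested genes. Of these 6, Alox5ap and Pla2g4a passed the filter on low counts only through the group where they were higher. Their place among the tested genes thus depended on that group. Without the filter, edgeR still called both in the same direction. Fold changes are those of the KO-labelled libraries over WT, with standard errors (SE). In RNA of a whole cell population, a change in the share of cells that carry a transcript and a change in its amount per cell cannot be told apart.

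**Figure D1:**
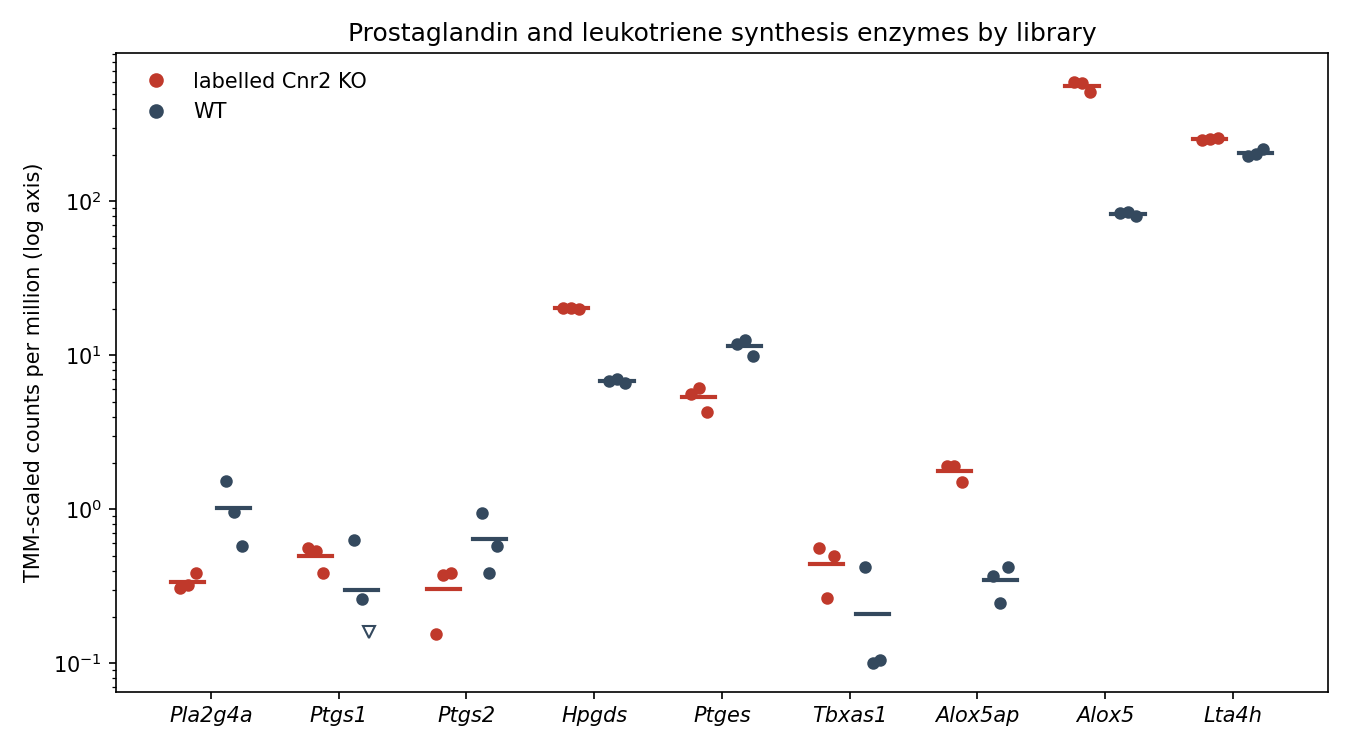
TMM-scaled CPM (log axis) of the 9 enzymes with a row in the table, in the 3 KO-labelled libraries (red, left of each pair) and the 3 WT libraries (dark, right); points are libraries, bars are group means, and the open triangle is the WT library with 0 Ptgs1 counts, drawn at its floor of 3 counts. Alox5 sits at 510.0 to 595 CPM in the KO-labelled libraries and at 79.8 to 85.9 CPM in WT, while Ptgs1, Ptgs2 and Tbxas1 stay below 1 CPM in all libraries and their groups overlap.

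Alox5 (ENSMUSG00000025701.12, chromosome 6, 116410077 to 116461178, minus strand, GRCm38) encodes the enzyme that starts leukotriene synthesis. Its level was 595, 590.2 and 510.0 CPM in the KO-labelled libraries, against 84.0, 85.9 and 79.8 CPM in the WT libraries. Every KO-labelled library was far above every WT library, and the spread within each group was small beside the gap. Means were 565 ± 47.9 CPM in the KO-labelled libraries and 83.2 ± 3.12 CPM in WT (SD, n = 3 each), which is 2.76 on the log2 scale (SE 0.06, edgeR adjusted p = 2.25e-17). Among the 12150 tested genes, 141 had a log2 fold change at least as high, Alox5 included. No other annotated gene overlaps it.

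The sequence before the transcription start is shown for the 3 genes whose changes were largest among those above 5 CPM, Alox5 and Hpgds (higher) and Ptges (lower), so that their promoters can be set beside their opposite directions. Each is the 250 bases upstream of the RefSeq start (GRCm38.p6), written 5′ to 3′ on the strand of the gene, at chr6:116461179-116461428 (minus strand) for Alox5, chr6:65144731-65144980 (minus strand) for Hpgds and chr2:30903298-30903547 (minus strand) for Ptges. By the GENCODE M21 gene bounds, the Ptges window lies inside the gene, whose 5′ end is at 30929863. The Hpgds window lies partly inside its gene, whose 5′ end is at 65144908. Capitals mark matches, on either strand, to any of 7 short motifs: for GATA factors the letters AGATAA or, in a further form, TGATAA, the promoter GC box with the letters GGGCGG, the consensus of NF-kB, the ROR response element with the letters AGGTCA, the RUNX motif with the letters TGTGGT, and the classical TATA box with the letters TATAAA.
Alox5: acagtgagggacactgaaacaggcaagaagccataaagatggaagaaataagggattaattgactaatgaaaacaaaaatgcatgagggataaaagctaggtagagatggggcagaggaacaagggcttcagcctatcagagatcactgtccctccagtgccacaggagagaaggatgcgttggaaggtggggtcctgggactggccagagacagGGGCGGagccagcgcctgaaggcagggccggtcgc
Hpgds: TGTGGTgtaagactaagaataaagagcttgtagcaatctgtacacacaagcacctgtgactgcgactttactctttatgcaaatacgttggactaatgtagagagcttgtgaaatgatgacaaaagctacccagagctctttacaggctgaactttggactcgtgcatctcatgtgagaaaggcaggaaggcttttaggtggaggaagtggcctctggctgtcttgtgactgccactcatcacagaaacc
Ptges: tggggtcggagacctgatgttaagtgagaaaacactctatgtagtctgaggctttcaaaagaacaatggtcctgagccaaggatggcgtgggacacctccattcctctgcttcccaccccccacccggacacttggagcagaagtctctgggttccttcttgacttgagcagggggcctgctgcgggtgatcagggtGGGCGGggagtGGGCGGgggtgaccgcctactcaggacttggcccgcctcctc
Alox5 held 1 GC box, 35 bases before its start, and Ptges held 2, at 53 and 42 bases, where 32.7% of all 32851 promoter sequences of this length held at least 1. Hpgds held no GC box and 1 RUNX match at the far end of the window, where 14.0% of all held one. The letters of the GATA, NF-kB, ROR and TATA motifs were in none of the 3 windows; they were in 9.99% (AGATAA), 7.94% (TGATAA), 1.41%, 14.0% and 12.4% of all promoters. These matches describe the letters alone and say nothing of binding. GC content was 52.8% for Alox5, 45.2% for Hpgds and 59.6% for Ptges, with a median of 52.4% over all windows.

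Alox5ap (ENSMUSG00000060063.9, chromosome 5, 149264767 to 149288153, plus strand) encodes FLAP, the membrane protein that presents arachidonic acid to the lipoxygenase. It was thinly counted, with 37, 36 and 27 counts in the KO-labelled libraries and 7, 32 and 8 counts in the WT libraries. Its level was 1.90, 1.92 and 1.497 CPM in the KO-labelled libraries, against 0.368, 0.248 and 0.423 CPM in WT. The groups did not overlap, and the deep WT library gave the lowest of the 6 levels. The log2 fold change was 2.51 (SE 0.40, edgeR adjusted p = 1.99e-05), and 2.14 without WT replicate 2. An antisense gene, Gm19719, overlaps its exons, and the counting was not stated to use strand, so some of these reads may belong to that gene.

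Lta4h (ENSMUSG00000015889.8, chromosome 10, 93453411 to 93484875, plus strand) encodes the hydrolase that makes leukotriene B4. Its level was 249, 256 and 259.4 CPM in the KO-labelled libraries, against 198, 202 and 219.5 CPM in the WT libraries. The groups did not overlap, but the difference was small, at 1.24-fold higher (log2 fold change 0.30, SE 0.05, edgeR adjusted p = 2.12e-05). Among the tested genes, 3755 of 12150 had a log2 fold change at least as high.

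Set against Lta4h within the same library, Alox5 changed places with it. With all annotated exons of a gene merged as its length, the per-length level of Alox5 was 3.55, 3.43 and 2.92 times that of Lta4h in the KO-labelled libraries, against 0.629, 0.633 and 0.540 times in the WT libraries. Alox5 thus stood above Lta4h in every KO-labelled library and below it in every WT library. With the longest coding transcript as the length, the mean ratio was 1.60 ± 0.161 in the KO-labelled libraries and 0.291 ± 0.0255 in WT (SD, n = 3 each), with the same order. The ratio of Alox5 to Alox5ap per length was 111 ± 6.19 in the KO-labelled libraries and 88.0 ± 28.4 in WT, and these values overlapped.

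**Figure D2:**
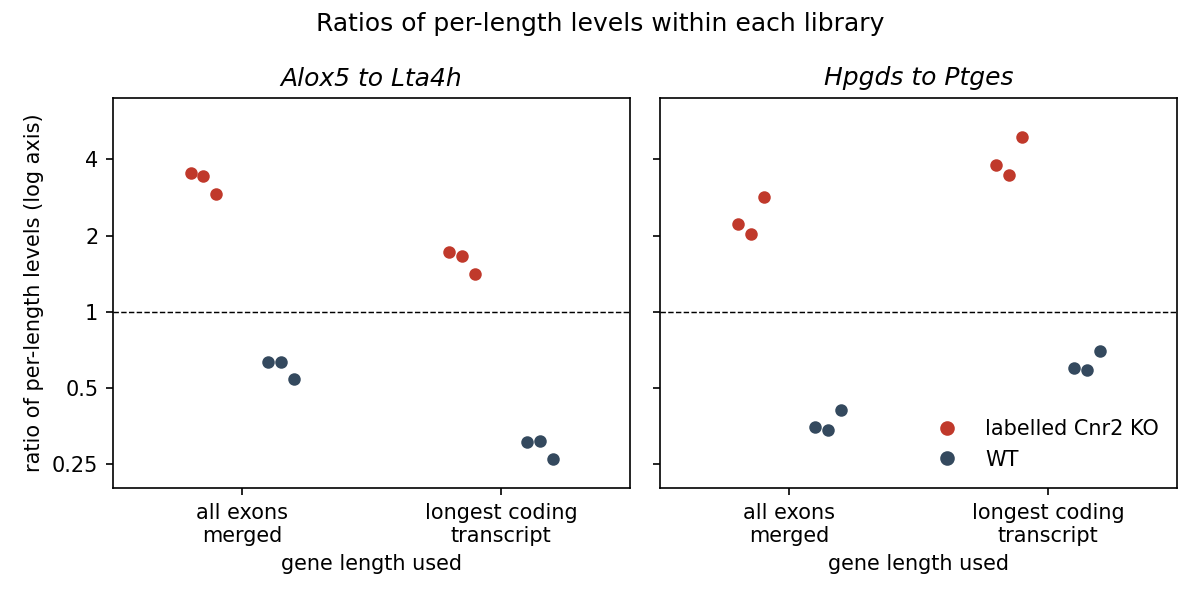
Ratio of the per-length levels of Alox5 to Lta4h (left) and of Hpgds to Ptges (right) in each library, on a log axis, for the KO-labelled libraries (red, left of each pair) and WT (dark, right), with gene length taken as all exons merged or as the longest coding transcript. The dashed line marks equal levels; all red points lie above it and all dark points below it, for both ratios and both lengths.

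On the prostaglandin side, Hpgds and Ptges moved in opposite directions. Hpgds (ENSMUSG00000029919.5, chromosome 6, 65117293 to 65144908, minus strand) encodes hematopoietic prostaglandin D synthase. Its level was 20.3, 20.3 and 19.9 CPM in the KO-labelled libraries, against 6.83, 6.98 and 6.60 CPM in the WT libraries. The groups were tight and far apart, differing by 1.56 on the log2 scale (SE 0.10, edgeR adjusted p = 1.45e-10), or 2.95-fold. A total of 511 of the 12150 tested genes had a log2 fold change at least as high.

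Ptges (ENSMUSG00000050737.13, chromosome 2, 30889471 to 30929863, minus strand) encodes the inducible microsomal prostaglandin E synthase. Its level was 5.60, 6.14 and 4.27 CPM in the KO-labelled libraries, against 11.9, 12.5 and 9.88 CPM in the WT libraries. All KO-labelled libraries were below all WT libraries, and the log2 fold change was -1.11 (SE 0.15, edgeR adjusted p = 2.67e-06), or 2.16-fold lower. Among the tested genes, 761 of 12150 had a log2 fold change at least as low. The per-length level of Hpgds was 2.22, 2.02 and 2.85 times that of Ptges in the KO-labelled libraries, against 0.350, 0.341 and 0.409 times in the WT libraries. So Hpgds was the higher of these synthase genes in each KO-labelled library, and Ptges in each WT library.

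The genes of the earlier steps were counted only thinly. Pla2g4a (ENSMUSG00000056220.14, chromosome 1, 149829618 to 149961290, minus strand), the cytosolic phospholipase A2 gene, had 6, 6 and 7 counts in the KO-labelled libraries and 29, 125 and 11 counts in the WT libraries. These are 0.308, 0.320 and 0.388 CPM in the KO-labelled libraries, against 1.52, 0.968 and 0.581 CPM in WT. The groups did not overlap, although the WT libraries spread widely, and the log2 fold change was -1.57 (SE 0.47, edgeR adjusted p = 6.15e-03).

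Ptgs1 (ENSMUSG00000047250.13, chromosome 2, 36230426 to 36252272, plus strand), the constitutive cyclooxygenase gene, had 11, 10 and 7 counts in the KO-labelled libraries and 12, 34 and 0 counts in the WT libraries. WT held both the highest and the lowest level, 0.630 and 0 CPM, and the 0 allows up to 0.159 CPM at 3 counts. The log2 fold change was 0.79 (SE 0.63, edgeR adjusted p = 0.281), so no difference was detectable at this depth. Exons of an unclassified transcript, Gm43621, overlap Ptgs1.

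Ptgs2 (ENSMUSG00000032487.8, chromosome 1, 150100031 to 150108227, plus strand), the inducible cyclooxygenase gene, had 3, 7 and 7 counts in the KO-labelled libraries and 18, 50 and 11 counts in the WT libraries. Its levels were 0.154, 0.374 and 0.388 CPM in the KO-labelled libraries, against 0.945, 0.387 and 0.581 CPM in WT, and the groups overlapped between the highest of the KO-labelled libraries and the lowest of WT. Pooled over a group, the ratio was 0.644, with a 95% exact interval of 0.357 to 1.10 that covers counting error only. Most of the WT pool came from the deep replicate 2, and without it the ratio was 0.399 (0.206 to 0.750). Without the filter on low counts edgeR gave Ptgs2 an adjusted p of 0.195.

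Tbxas1 (ENSMUSG00000029925.13, chromosome 6, 38875404 to 39084585, plus strand), the thromboxane synthase gene, had 11, 5 and 9 counts in the KO-labelled libraries and 8, 13 and 2 counts in the WT libraries. The groups overlapped, at 0.565, 0.267 and 0.499 CPM in the KO-labelled libraries and 0.420, 0.101 and 0.106 CPM in WT. The pooled ratio of 3.25 had a counting interval of 1.77 to 6.00, but it rests on WT replicate 2, which gave 13 of the 23 WT counts; without that library it was 1.70, with an interval of 0.789 to 3.97. Without the filter edgeR gave Tbxas1 an adjusted p of 0.215. The antisense gene Gm42962 overlaps its exons.

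Placed in order by TPM (a level per exon length, scaled to a fixed sum over the 16233 genes with a length), the enzymes fell into steps of very different size. In the KO-labelled libraries the order was Alox5 (496 ± 43.2 TPM), Lta4h (151 ± 2.21), Hpgds (11.3 ± 0.203), Ptges (4.89 ± 0.869), Alox5ap (4.50 ± 0.611), Ptgs1 (0.460 ± 0.0892), Ptgs2 (0.240 ± 0.101), Pla2g4a (0.191 ± 0.0240) and Tbxas1 (0.176 ± 0.0637 TPM, SD, n = 3). Ptges and Alox5ap overlapped there, as did Ptgs2 with Pla2g4a and Pla2g4a with Tbxas1. In WT the order was Lta4h (118 ± 5.52 TPM), Alox5 (71.0 ± 3.14), Ptges (10.2 ± 1.29), Hpgds (3.71 ± 0.126) and Alox5ap (0.853 ± 0.217), and then Pla2g4a (0.563 ± 0.265), Ptgs2 (0.488 ± 0.220), Ptgs1 (0.270 ± 0.288) and Tbxas1 (0.0807 ± 0.0714 TPM), and from Alox5ap down each overlapped the next. By mean TPM, Alox5 ranked 296 of 16233 genes in the KO-labelled libraries and 2805 in WT. Alox5 made up 74.1 ± 1.80% of the summed TPM of the 9 genes in the KO-labelled libraries and 34.5 ± 1.62% in WT, and Lta4h 22.6 ± 1.82% in the KO-labelled libraries and 57.6 ± 2.50% in WT. Lta4h depends most on the length used among the abundant enzymes: with the longest coding transcript it was at 311 TPM in the KO-labelled libraries and 242 TPM in WT. The order of the lowest genes also depends on it, since Tbxas1 was then at 0.553 TPM in the KO-labelled libraries and 0.251 TPM in WT.

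Around these enzymes, 74 other symbols of the eicosanoid pathway were listed, of which 52 had a row and 43 were tested. Of these 28 were higher and 12 lower in the KO-labelled libraries, where 33.1% of all 12150 tested genes were higher and 33.2% lower. The median log2 fold change was 0.48, beside 0.01 over all tested genes. These lists were chosen with earlier results of these data known, so the counts and the median describe the listed genes alone. Some thinly counted genes among them passed the filter on low counts only through the group where they were higher. Counts for each role follow, to be read beside the same shares. Genes are named as the called members above 5 CPM in either group with the smallest p, up to 4 for each group.

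Of 8 other phospholipase and related genes tested, 2 were higher and 5 lower. One of the higher, Pla2g15, lost its call without replicate 1 (edgeR adjusted p = 0.107) or 2 (0.0641) of the KO-labelled libraries, without WT replicate 1 (0.0788) or 2 (0.183), and under DESeq2 (0.0699). Pla2g12a, which encodes a secreted phospholipase A2, had 41.6, 43.4 and 39.4 CPM in the KO-labelled libraries, against 121, 130 and 123 CPM in WT, 3.01-fold lower (edgeR adjusted p = 3.58e-14). Plaat3, which encodes a phospholipase and acyltransferase, had 43.3, 41.0 and 42.2 CPM in the KO-labelled libraries, against 17.0, 13.8 and 15.7 CPM in WT, 2.77-fold higher. Plaa, the phospholipase A2 activating protein gene, was 1.26-fold lower, and Pla2g6, a calcium-independent phospholipase gene, was 1.21-fold lower (edgeR adjusted p = 0.0115, but 0.0506 without replicate 1 of the KO-labelled libraries and 0.0615 without WT replicate 3).

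Of 8 genes that make arachidonic acid or load it into phospholipids, 7 were higher and 1, Fads2, was lower. Of the 7, Acsl3 lost its call without replicate 3 of the KO-labelled libraries (edgeR adjusted p = 0.0739) and without WT replicate 2 (0.0766). Lpcat2, an acyltransferase of phospholipid remodelling, had 21.6, 19.8 and 21.7 CPM in the KO-labelled libraries, against 6.04, 6.77 and 7.50 CPM in WT, 3.11-fold higher, with an antisense gene, Gm45472, over its exons. Acsl4, which activates arachidonic acid for esterification, was 1.61-fold higher, at 195 ± 7.72 CPM in the KO-labelled libraries and 120.0 ± 9.85 CPM in WT. The fatty acid elongase gene Elovl5 was 1.47-fold and the desaturase gene Fads1 1.38-fold higher, while Fads2, the desaturase that acts before Fads1, was 2.27-fold lower (edgeR adjusted p = 4.51e-06).

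Of 5 other prostanoid synthase genes, 1 was higher and 4 lower, of which Prxl2b lost its call without replicate 1 of the KO-labelled libraries (edgeR adjusted p = 0.0753). Ptges3, which encodes the cytosolic prostaglandin E synthase, also known as the co-chaperone p23, was 1.80-fold lower, at 166 ± 7.41 CPM in the KO-labelled libraries and 299 ± 26.8 CPM in WT. Ptges2, the second membrane-associated prostaglandin E synthase gene, was 1.60-fold lower, so all 3 prostaglandin E synthase genes were lower in the KO-labelled libraries. Akr1b3, the aldose reductase gene, was 1.24-fold lower. Cbr1, a carbonyl reductase that can reduce prostaglandin E2, was 1.23-fold higher (edgeR adjusted p = 9.80e-03, but 0.0542 when replicate 3 of the KO-labelled libraries was left out).

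All 7 tested genes among the other lipoxygenase and leukotriene genes were higher in the KO-labelled libraries, where 33.1% of all tested genes were. Alox8, the mouse 8-lipoxygenase gene, had 18.1, 20.1 and 15.5 CPM in the KO-labelled libraries, against 8.46, 8.25 and 6.82 CPM in WT, 2.26-fold higher. Mgst3, a microsomal glutathione S-transferase of the same protein family as Ltc4s and FLAP, was 4.52-fold higher, at 5.80 ± 1.02 CPM in the KO-labelled libraries and 1.31 ± 0.190 CPM in WT. Its relative Mgst2, named after its values were seen because it too can conjugate leukotriene A4 with glutathione, had 2.72, 3.26 and 3.83 CPM in the KO-labelled libraries, against 0.945, 0.736 and 1.22 CPM in WT (edgeR adjusted p = 3.06e-05). Cotl1, whose product binds the Alox5 protein, was 1.69-fold higher and Gpx4, which reduces lipid hydroperoxides, 1.37-fold higher.

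Of 5 export and breakdown genes tested, 2 were higher and 2 lower. Abcc1, the transporter known to export leukotriene C4, had 115, 128 and 113 CPM in the KO-labelled libraries, against 344, 302 and 317 CPM in WT, 2.698-fold lower (edgeR adjusted p = 9.92e-14). Abcc4, a transporter of prostaglandins, was 1.17-fold lower. Ptgr1, a reductase that inactivates prostaglandins and leukotriene B4, had 5.70, 5.77 and 4.16 CPM in the KO-labelled libraries, against 1.42, 1.46 and 1.37 CPM in WT, 3.65-fold higher. Zadh2, another prostaglandin reductase gene, was 1.39-fold higher. Hpgd, the main dehydrogenase of prostaglandin breakdown, had no row and was not analysed here.

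**Figure D3:**
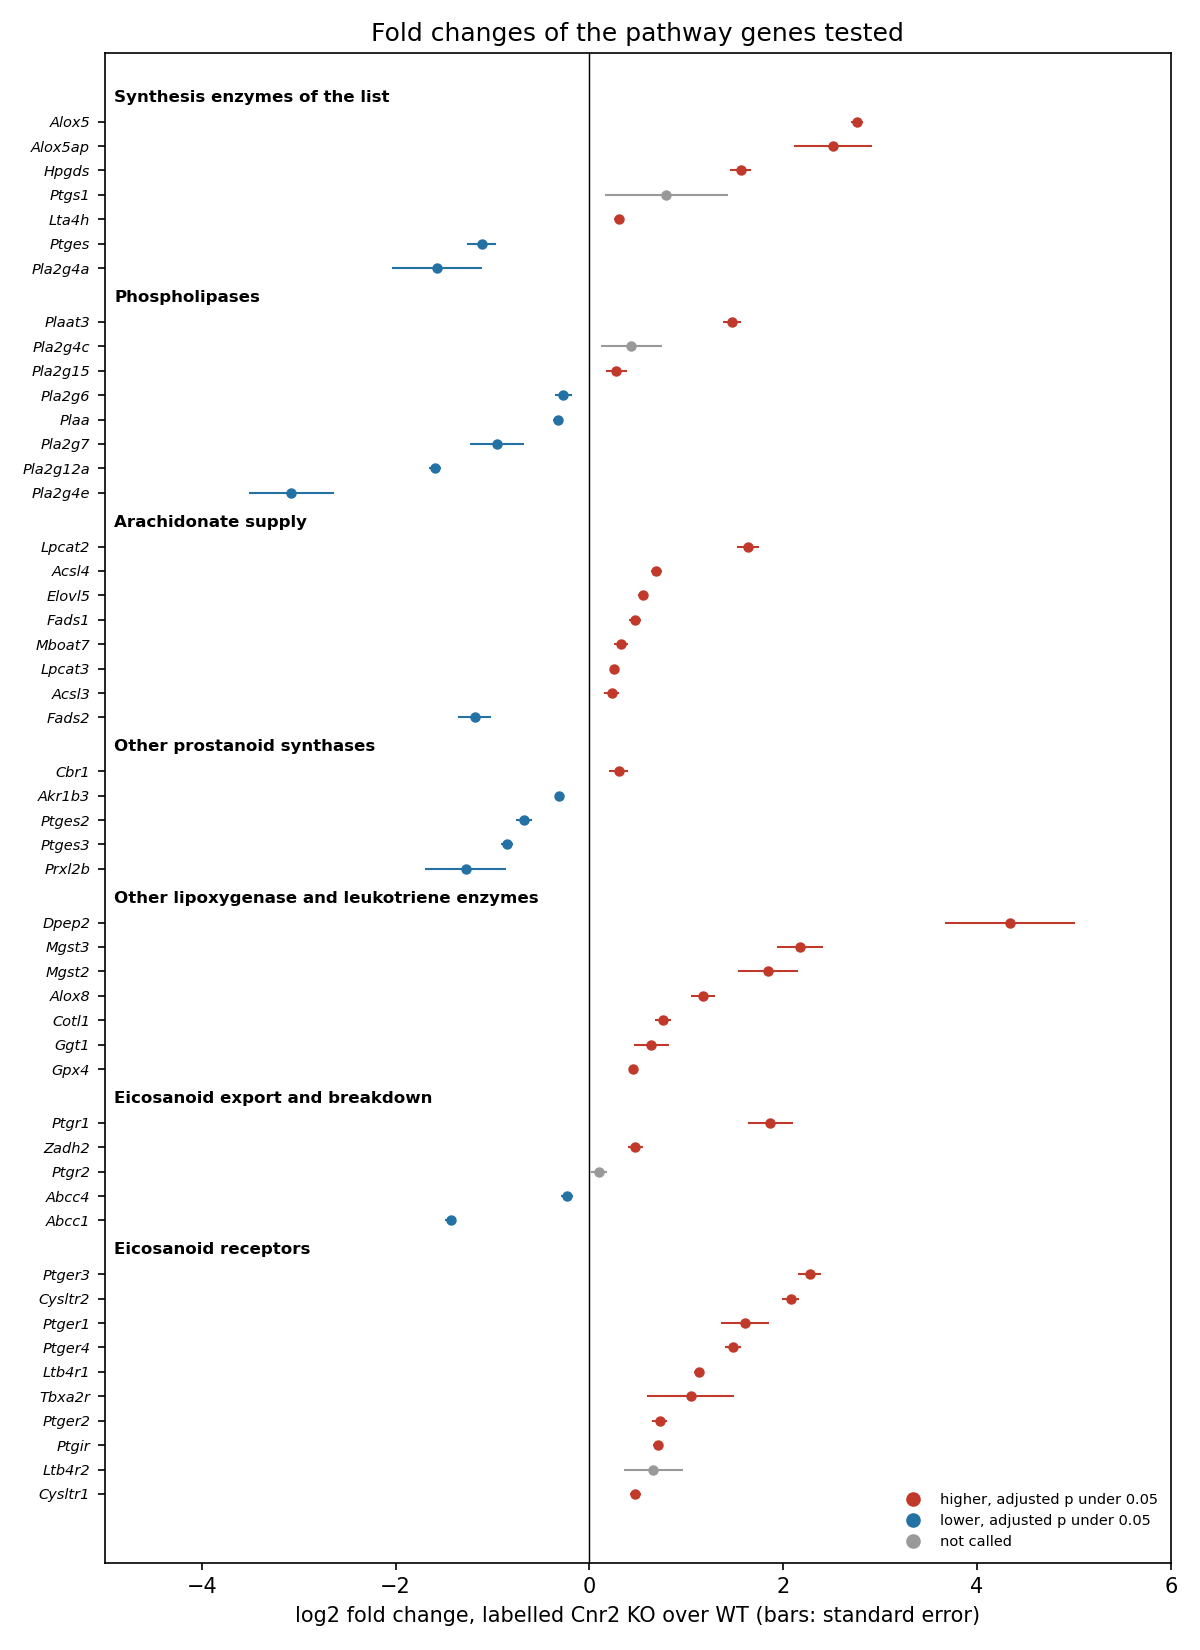
Log2 fold change of the KO-labelled libraries over WT for the tested genes of the synthesis list and of the 6 surrounding groups, with bars of 1 standard error; red is higher and blue lower at an edgeR adjusted p under 0.05, and grey is not called. All 7 points of the other lipoxygenase and leukotriene group lie to the right of 0, while 4 of 5 points of the other prostanoid synthases lie to the left.

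The receptors for these lipids were higher in the KO-labelled libraries in 9 of 10 tested cases, and none was lower. Over all tested genes 33.1% were higher and 33.2% lower. Ltb4r1, the high-affinity leukotriene B4 receptor gene, had 567, 604 and 545 CPM in the KO-labelled libraries, against 251, 269 and 264 CPM in WT, 2.19-fold higher (edgeR adjusted p = 2.37e-13). Cysltr2, a receptor gene for cysteinyl leukotrienes, had 38.3, 38.7 and 36.8 CPM in the KO-labelled libraries, against 9.19, 8.53 and 9.67 CPM in WT, 4.22-fold higher. Cysltr1, the other one, was 1.39-fold higher, at 222 ± 4.12 CPM in the KO-labelled libraries and 159 ± 11.2 CPM in WT. For each of these receptor genes the libraries of the groups did not overlap, as for 68.8% of all tested genes.

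Receptor genes for prostaglandin E2 also rose. Ptger3 was 4.84-fold higher (24.9 ± 1.65 CPM in the KO-labelled libraries and 5.30 ± 0.724 CPM in WT), Ptger1 3.05-fold, Ptger4 2.80-fold and Ptger2 1.65-fold. Ptgir, the prostacyclin receptor gene, was 1.63-fold higher, at 235 ± 9.61 CPM in the KO-labelled libraries and 144 ± 6.40 CPM in WT. Tbxa2r, the thromboxane receptor gene, was near the limit of counting, at 0.727 ± 0.0832 CPM in the KO-labelled libraries and 0.369 ± 0.138 CPM in WT, and its edgeR adjusted p of 0.0486 ranged from 0.0220 to 0.218 over 14 alternatives, with the call lost in 9 of them. Ltb4r2, the low-affinity leukotriene B4 receptor gene, did not pass (1.79 ± 0.184 CPM in the KO-labelled libraries and 1.09 ± 0.199 CPM in WT, edgeR adjusted p = 0.0649). Exons of other genes overlap those of Ptger1, Ptger2 and Ptger4, whose counts are uncertain to that extent. Ptgdr and Ptgdr2, the prostaglandin D2 receptor genes, had no row and were not analysed here.

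**Figure D4:**
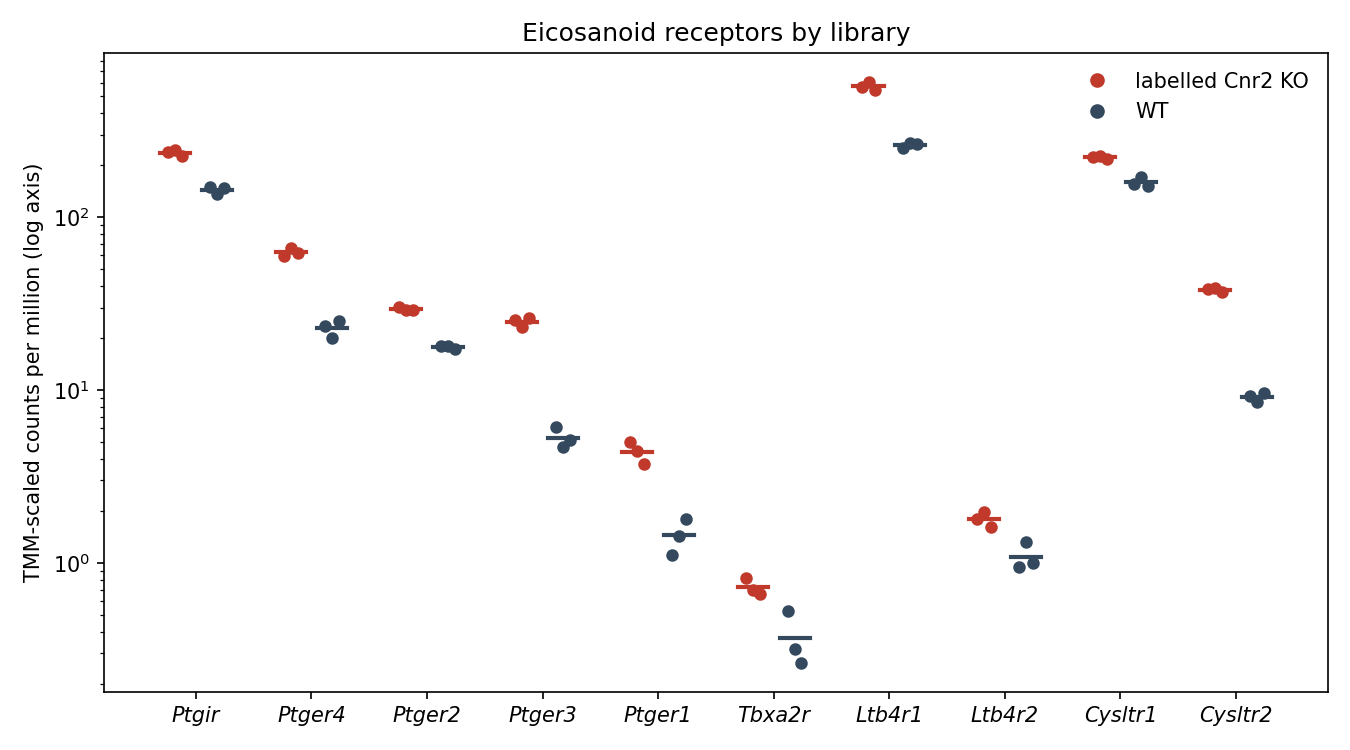
TMM-scaled CPM (log axis) of the 10 tested eicosanoid receptor genes in the 3 KO-labelled libraries (red, left of each pair) and the 3 WT libraries (dark, right); points are libraries and bars are group means. Ltb4r1 sits at 545 to 604 CPM in the KO-labelled libraries and 251 to 269 CPM in WT, and Tbxa2r below 1 CPM throughout.

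Other cells that make eicosanoids were looked for through their markers, since several of these also moved with the genotype labels. Over all 12150 tested genes, 33.1% were called higher and 33.2% lower, and the groups did not overlap for 68.8%. A call or a gap by itself thus does not set these markers apart. Of 11 mast cell and basophil markers 8 had a row, and their summed level was 15.9 to 17.2 CPM in the KO-labelled libraries and 10.1 to 14.3 CPM in WT, with 3 of 6 tested members higher and 1 lower. Most of the sum was Hdc, at a mean of 9.77 CPM in the KO-labelled libraries and 6.65 CPM in WT. Fcer1a averaged 1.05 CPM in the KO-labelled libraries and 0.0279 CPM in WT. Mcpt8 went the other way, at 0.468 CPM in the KO-labelled libraries and 1.57 CPM in WT. Of 12 macrophage and monocyte markers 4 had a row, and they summed to 3.49 to 5.66 CPM in the KO-labelled libraries and 1.21 to 1.71 CPM in WT; Adgre1 had 0 counts in all 3 WT libraries. Of 6 eosinophil markers Ccr3 alone had a row, at 21.7 to 26.6 CPM in the KO-labelled libraries and 7.93 to 8.81 CPM in WT. Neutrophil markers, 3 of 8 with a row, summed to 0.103 to 0.943 CPM in the KO-labelled libraries and 0.0929 to 0.210 CPM in WT, and these ranges overlapped. Platelet markers, 5 of 8 with a row, summed to 568 to 612 CPM in the KO-labelled libraries and 97.7 to 124 CPM in WT, nearly all of it the integrin gene Itgb3, while Pf4 averaged 0.142 CPM in the KO-labelled libraries and 0.0430 CPM in WT. Dendritic cell markers, 5 of 8 with a row, summed to 27.9 to 31.7 CPM in the KO-labelled libraries and 15.2 to 17.4 CPM in WT, mostly Xcr1. B cell, T cell, epithelial and endothelial lists did not overlap between the groups either, where 68.8% of single tested genes did not. T cell markers, 4 of 7 with a row, summed to 18.5 to 22.1 CPM in the KO-labelled libraries and 7.25 to 7.66 CPM in WT, mostly Cd3g. Of the 3 tested, 2 were higher and 1 lower, and Trac averaged 0.464 CPM in the KO-labelled libraries and 1.48 CPM in WT. Cd79b, the 1 of 5 B cell markers with a row, was at 25.1 to 26.3 CPM in the KO-labelled libraries and 16.1 to 17.2 CPM in WT. Epithelial markers, 5 of 8 with a row, summed to 45.7 to 51.6 CPM in the KO-labelled libraries and 12.6 to 28.4 CPM in WT, mostly Epcam, while Krt8 and Krt19 had 0 counts in all KO-labelled libraries. Endothelial markers, 2 of 6 with a row, summed to 39.3 to 40.3 CPM in the KO-labelled libraries and 106 to 114 CPM in WT, mostly Pecam1. Fibroblast markers, 5 of 6 with a row, summed to 3.49 to 7.48 CPM in the KO-labelled libraries and 2.57 to 6.36 CPM in WT. These ranges overlapped, and of the 5 tested fibroblast markers 0 were called. The part of such cells in the levels of Alox5, Alox5ap and Hpgds was not tested.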

How the data were processed

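RNA of 3 libraries labelled Cnr2 KO and 3 WT libraries was compared. The authors deposited 1 table of expected counts (estimated counts per gene, not scaled), of which 59.1 to 81.2% per library lay within 0.02 of a whole number. Partek 10.0, STAR 2.7.8, DESeq2 and mm10 are named, without roles, per the submitters' processing notes; the sources used here do not give the counting method or its strand setting. Counts were rounded, filtered (filterByExpr, minimum count 10, total 15) and tested with edgeR 4.0.16 (R 4.3.3; quasi-likelihood, TMM, genotype only) over 12150 genes, after a test on simulated data. The simulated data held changes in only a small share of genes, all well counted, so they do not speak for thin counts or for changes this widespread. SE is the absolute log2 fold change over the root of F. CPM per library and TPM (GENCODE M21, GRCm38; 16233 genes matched) describe levels. RefSeq promoters (GRCm38.p6) matched 9 of the 10 symbols. Members and lists were chosen with earlier results of these data known. Named genes were the members, Cnr2, up to 4 called genes per list above 5 CPM and tested receptors. Alternatives were DESeq2 size factors, no or a stricter filter, a replicate block, each library left out, WT replicate 2 thinned, DESeq2 1.42.0, limma-voom (3.58.1) and a GC content and length offset. Within each group, chi-square per gene between libraries was 4.11 to 8.94, above sampling noise. Leaving each library out of the pooled ratios of Ptgs2 and Tbxas1 was chosen after seeing the data. Intervals and floors cover counting error only.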

Additional observations from a re-analysis of the deposited data

How the results depend on the processing

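The 6 calls among the synthesis enzymes, and the lack of one for Ptgs1, kept their direction and side of the threshold in all 102 alternative fits run for the 7 tested genes. Log2 fold changes ranged from 2.72 to 2.83 for Alox5, 2.14 to 2.64 for Alox5ap, 0.24 to 0.34 for Lta4h, 1.48 to 1.60 for Hpgds, -1.22 to -0.98 for Ptges, -1.81 to -1.29 for Pla2g4a and 0.40 to 1.30 for Ptgs1. The stricter filter left 4 called enzymes in place of 6, 3 higher and 1 lower, because Alox5ap and Pla2g4a were no longer tested. Genes called over the whole table numbered 7520 to 7811 when a library was left out, against 8053 with all. The replicate block gave 8174 called genes and the same 6 enzymes; same-numbered libraries deviated together only weakly (correlations 0.0656, 0.00571 and 0.0429), so the numbers were not taken as pairs. Gene length moved the ratios: Alox5 to Lta4h was 2.00 in the KO-labelled libraries and 0.365 in WT with the longest transcript, and 1.60 in the KO-labelled libraries and 0.291 in WT with the longest coding transcript (chosen after seeing the data). Hpgds to Ptges was 3.62 in the KO-labelled libraries and 0.562 in WT with the longest transcript, and 4.06 in the KO-labelled libraries and 0.629 in WT with the longest coding one. Depth limits Ptgs1, Ptgs2, Tbxas1 and Pla2g4a, all with means near or below 1 CPM, and DESeq2 without the filter gave adjusted p = 0.246 for Ptgs2 and 0.259 for Tbxas1. Among the other pathway genes and Cnr2, 623 of 644 alternative fits kept the call, 20 lost it and 1 gained it, and none reversed.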

Other observations

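A few listed genes outside the rule for naming were picked after their values were seen. Pla2g4e, a cytosolic phospholipase family gene whose product is known as an N-acyltransferase, was at 0.296 ± 0.279 CPM in the KO-labelled libraries and 2.52 ± 0.494 CPM in WT (SD, n = 3 each, edgeR adjusted p = 4.67e-06). Exons of a processed transcript on the same strand, Gm13997, overlap those of Pla2g4e, whose counts are uncertain to that extent. Dpep2, a dipeptidase gene of cysteinyl leukotriene processing, was at 0.962 ± 0.238 CPM in the KO-labelled libraries and 0.0628 ± 0.0835 CPM in WT (edgeR adjusted p = 1.35e-05). Exons of other genes, among them the protein-coding Dus2, overlap those of Dpep2, whose counts are uncertain to that extent. Pla2g4e passed the filter on low counts only through the WT libraries, and Dpep2 only through the KO-labelled libraries. Ggt1, the gamma-glutamyltransferase gene that acts before that dipeptidase step, was at 5.60 ± 0.586 CPM in the KO-labelled libraries and 3.55 ± 0.387 CPM in WT (edgeR adjusted p = 4.21e-03).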
